A study of Mus musculus with 23 samples.

Results

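The genes examined were the 4 members of the Ebf transcription factor family, Ebf1, Ebf2, Ebf3 and Ebf4, out of 21938 protein-coding genes of the mouse. They were taken by gene name, with earlier results of these data known. For each gene, every deposited peak was collected that lay within 5 kb of the transcription start site (TSS), within the gene, or within 100 kb on either side, and these stretches are called loci here. The loci summed to 1584 kb and held 223 peaks, 149 of H3K27ac and 74 of H3K27me3. Acetylation of lysine 27 of histone H3 (H3K27ac) is a mark of active promoters and enhancers, and trimethylation of the same lysine (H3K27me3) is placed by Polycomb complexes on silenced genes.

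Ebf proteins, also named COE factors, bind DNA through a conserved zinc-containing domain and pair through a helix-loop-helix motif. In the nervous system they act downstream of proneural factors and take part in the exit of neurons from the progenitor state, their migration and their maturation. Ebf1 is best known from B lymphocytes and striatal neurons. Ebf2 and Ebf3 are both known in Cajal-Retzius (CR) cells, the Reelin-secreting neurons of cortical layer 1, while Ebf4 is the most divergent member.

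Chromatin was immunoprecipitated from cerebral cortex cells of Tg(Ebf2-EGFP)FB58Gsat embryos and sequenced. The 8 ChIP groups were H3K27ac and H3K27me3 in Ebf2-EGFP- cells of E11.5 and in Ebf2-EGFP+ cells of 3 stages (E11.5, E13.5, E15.5). Each group had 2 ChIP libraries, apart from a single H3K27ac library of Ebf2-EGFP- cells, and each cell group had 2 input libraries. One peak list per group was deposited, so no list had a replicate and every comparison below is a description without a test. All embryos carried the transgene, in which regulatory sequence of Ebf2 drives EGFP, and no other treatment or allele was named. Per the study, the Ebf2-EGFP- cells at E11.5 are mostly progenitors, the Ebf2-EGFP+ cells at that stage are mainly preplate neurons, both CR and subplate, and by E15.5 the Ebf2-EGFP+ cells are mostly CR neurons. Sorting used a reporter of Ebf2 itself, so a contrast at Ebf2 between Ebf2-EGFP+ and Ebf2-EGFP- cells is not independent of how the cells were chosen. Reads from transgene copies of Ebf2 sequence and from the gene itself cannot be told apart. In a bulk list, fewer cells with a mark and less of the mark per cell cannot be told apart. How many embryos were pooled per ChIP library is not given in the sources used here.

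The lists differed widely in length, and every count below has to be read against that. The H3K27ac lists held 1386 peaks in the Ebf2-EGFP- cells and, from the earliest stage to the latest, 37055, 102881 and 25793 in Ebf2-EGFP+ cells. For H3K27me3 the numbers were 48963, then 6387, 6721 and 1438. Median peak widths ran from 138 bp to 284 bp, so most peaks spanned about a nucleosome. The markers of the sorted cells were checked at the TSS. Of 4 CR markers (Reln, Trp73, Calb2, Lhx5), 3, 4 and 3 had H3K27ac by stage in the Ebf2-EGFP+ cells, and 1 (Reln) had it in the Ebf2-EGFP- cells. Of 5 progenitor markers, 4, 5 and 3 had H3K27ac in Ebf2-EGFP+ cells and 0 in the Ebf2-EGFP- cells. Of 4 pan-neuronal markers 3, 2 and 3 had it, again against 0. The H3K27ac list of the Ebf2-EGFP- cells marked 4.17% of all TSS, so its counts of 0 show nothing about these markers. H3K27me3 in the Ebf2-EGFP- cells was found at 3 progenitor markers (Sox2, Nes, Vim), 2 pan-neuronal and 2 CR markers, against 48.2% of all TSS. Per the study, Sox2 RNA was higher in Ebf2-EGFP- cells at all 3 stages. A peak of this H3K27me3 list alone thus does not show a silenced gene. Markers of other cells had H3K27ac by stage in the Ebf2-EGFP+ cells at 2, 3 and 1 of 4 GABAergic genes, 1, 1 and 0 of 3 vascular genes, 1, 2 and 2 of 3 microglial genes and 1, 2 and 0 of 3 mesenchymal genes. Dcx, Gad1, Pecam1 and Col3a1 had no TSS peak in any list. By stage, 49.9%, 60.9% and 52.3% of all protein-coding TSS had H3K27ac in these lists, so counts over so few markers do not show whether other cells were present. The study describes the sorted Ebf2-EGFP+ and Ebf2-EGFP- cells as nearly pure. A part of other cells in the peaks of the Ebf loci was not tested.

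Sequences of 6 stretches on GRCm38 (the assembly named mm10) are shown because the results turn on them. They are the promoter-near peak found at Ebf1 at E13.5 alone, a pair of intronic Ebf2 sites acetylated at both E11.5 and E13.5, an Ebf3 intronic site with H3K27me3 in the Ebf2-EGFP- cells and H3K27ac in Ebf2-EGFP+ cells, and the 250 bases before the Ebf3 and Ebf4 TSS. Each runs 5′ to 3′ on the strand of its gene. Capitals mark the letters CCCNNGGG, the core of the palindrome that Ebf factors bind, and the E-box CANNTG, bound by proneural factors. Both motifs were searched on both strands, which read alike, and motifs next to each other run together in one block of capitals.
Ebf1 intron, chr11:44618233-44618501, plus strand: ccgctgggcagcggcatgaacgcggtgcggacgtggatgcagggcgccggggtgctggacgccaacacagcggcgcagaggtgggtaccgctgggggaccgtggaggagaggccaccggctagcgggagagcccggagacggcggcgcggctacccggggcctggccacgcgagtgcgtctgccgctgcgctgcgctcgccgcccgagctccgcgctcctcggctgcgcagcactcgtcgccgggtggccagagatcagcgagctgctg
Ebf2 intron, chr14:67254404-67254691, plus strand: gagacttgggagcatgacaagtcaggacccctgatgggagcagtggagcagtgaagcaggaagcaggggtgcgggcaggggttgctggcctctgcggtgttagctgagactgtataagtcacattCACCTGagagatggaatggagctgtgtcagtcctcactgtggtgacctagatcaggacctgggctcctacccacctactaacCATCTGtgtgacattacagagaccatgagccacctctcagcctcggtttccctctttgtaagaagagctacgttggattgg
Ebf2 intron, chr14:67299849-67300076, plus strand: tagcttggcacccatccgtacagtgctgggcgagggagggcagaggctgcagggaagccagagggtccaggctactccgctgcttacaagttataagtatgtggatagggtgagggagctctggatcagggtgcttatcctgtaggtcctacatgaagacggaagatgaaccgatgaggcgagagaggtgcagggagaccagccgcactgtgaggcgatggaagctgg
Ebf3 intron, chr7:137309258-137309505, minus strand: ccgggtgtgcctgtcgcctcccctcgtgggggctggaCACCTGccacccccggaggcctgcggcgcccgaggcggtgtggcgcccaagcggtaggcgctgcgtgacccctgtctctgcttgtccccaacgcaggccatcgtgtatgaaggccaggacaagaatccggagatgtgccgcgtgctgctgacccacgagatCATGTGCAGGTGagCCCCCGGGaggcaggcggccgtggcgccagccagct
Ebf3 before the TSS, chr7:137314446-137314695, minus strand: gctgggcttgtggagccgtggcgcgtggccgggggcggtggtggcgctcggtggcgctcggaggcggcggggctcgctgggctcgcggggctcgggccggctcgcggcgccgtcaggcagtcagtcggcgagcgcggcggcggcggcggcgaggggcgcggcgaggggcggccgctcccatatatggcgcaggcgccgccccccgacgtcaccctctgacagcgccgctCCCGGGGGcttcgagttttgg
Ebf4 before the TSS, chr2:130294919-130295168, plus strand: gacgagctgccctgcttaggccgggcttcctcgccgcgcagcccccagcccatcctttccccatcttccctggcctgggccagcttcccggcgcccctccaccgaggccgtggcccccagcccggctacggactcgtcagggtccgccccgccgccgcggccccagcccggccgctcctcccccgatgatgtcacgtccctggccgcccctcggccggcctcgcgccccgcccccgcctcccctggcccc
The stretch before the Ebf3 TSS had a GC content of 80% with 43 CpG, and that of Ebf4 78.8% with 28 CpG. The Ebf1 peak was also GC-rich, at 75.5% with 38 CpG, and 80 of its 269 bases were coding sequence. By contrast the 2 Ebf2 sites, both wholly intronic, had 54.5% with 4 CpG and 57.9% with 8 CpG. Of the 248 bases of the Ebf3 intronic site, 74 were coding, and the site held 1 core and 3 E-boxes.

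The first question was which Ebf genes carried each mark at the TSS, where H3K27ac goes with promoter activity and H3K27me3 with silencing. In the Ebf2-EGFP- cells 0 of the 4 members had an H3K27ac peak within 5 kb of the TSS, in a list that marked 4.17% of all protein-coding TSS. In Ebf2-EGFP+ cells 3 members had one at E11.5 (Ebf2, Ebf3 and Ebf4), 4 at E13.5 and 2 at E15.5 (Ebf3 and Ebf4). The same lists marked 49.9%, 60.9% and 52.3% of all TSS, and against these shares the counts of 3, 4 and 2 members are no result about the family. For H3K27me3 the counts at E11.5 were the other way round, as were the shares of all TSS. Ebf2, Ebf3 and Ebf4 had a peak in the Ebf2-EGFP- cells, against 48.2% of all TSS, and 0 members had one in E11.5 Ebf2-EGFP+ cells, against 4.92%. At E13.5, 2 members (Ebf2 and Ebf3) had H3K27me3, against 9.31% of all TSS, and at E15.5 0 did, against 1.06%. With peaks of at least 300 bp alone, the members with H3K27ac at E13.5 were 2 and those with H3K27me3 1 in the Ebf2-EGFP- cells and 0 at E13.5.

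**Figure D1:**
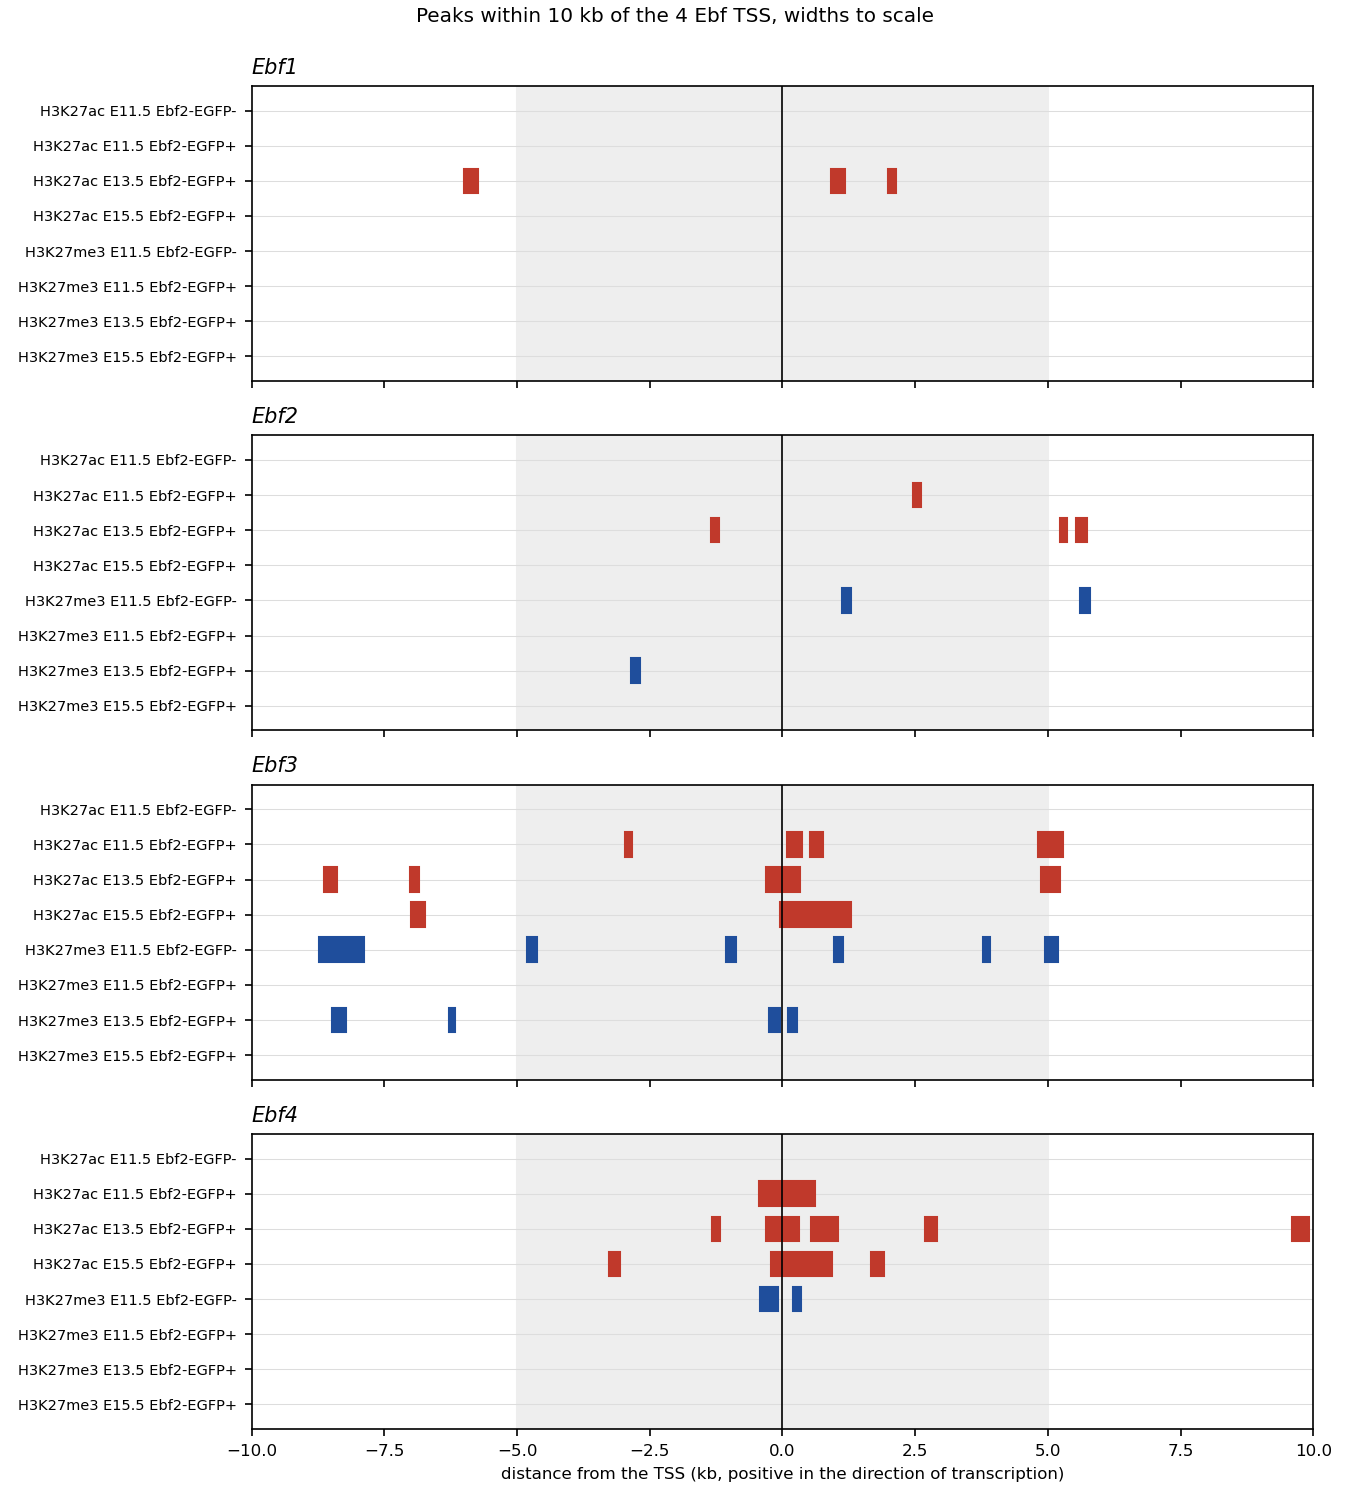
Peaks within 10 kb of each Ebf TSS, with the distance from the TSS in kb on the horizontal axis (positive in the direction of transcription), 1 row per list and peak widths to scale. Red boxes are H3K27ac and blue boxes H3K27me3, the grey band is the window of 5 kb either side, and the vertical line is the TSS. Ebf3 and Ebf4 show H3K27ac over or just beside the TSS at all 3 Ebf2-EGFP+ stages, up to 1337 bp and 1142 bp wide, and Ebf1 shows it at E13.5 alone.

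Ebf2, Ebf3 and Ebf4 thus had H3K27me3 at the TSS in the Ebf2-EGFP- cells and H3K27ac in E11.5 Ebf2-EGFP+ cells. This pair of marks was found at 34.8% of all TSS. Ebf3 and Ebf4 kept an H3K27ac peak in the window at all 3 stages, as did 33.1% of all TSS. At E13.5 the windows of Ebf2 and Ebf3 each held both marks, against 8.39% of all TSS. At Ebf2 the peaks of the marks did not overlap and neither lay within 1 kb of the TSS. Ebf1 and Ebf2 had H3K27ac at E13.5 and none at E15.5, a pattern of 19.7% of all TSS, and Ebf2 alone had it at E11.5 and not at E15.5, as 9.91% did. With 4 genes and single lists, these counts describe the members and set none of them apart from other genes.

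Ebf1 lies on chromosome 11 from 44617317 to 45008091 on the plus strand and is the longest of the 4 genes, at 391 kb. Its locus was the barest. No H3K27ac was found in the Ebf2-EGFP- cells, while the Ebf2-EGFP+ cells had 5, 15 and 1 H3K27ac peaks by stage. H3K27me3 peaks numbered 7 in the Ebf2-EGFP- cells, then 1, 0 and 0 by stage in the Ebf2-EGFP+ cells. At the density of each list over the genome, a stretch of this length would hold 8.03, 22.3 and 5.59 H3K27ac peaks by stage and 10.6 H3K27me3 peaks in the Ebf2-EGFP- cells, so each of these counts lay below that density. In the TSS window, only H3K27ac of E13.5 was found, 1 of 269 bp centred 1.05 kb into the gene (printed above) and 1 of 157 bp at 2.06 kb. The former was about as wide as the widest TSS peak of a typical marked gene, whose median in that list was 255 bp. The nearest H3K27ac peak was 54.4 kb upstream at E11.5 in Ebf2-EGFP+ cells, and at E15.5 it was 98.0 kb upstream. That single E15.5 peak, of 1138 bp, lay at the TSS of Rnf145, the only protein-coding neighbour in the locus, and it overlapped peaks of the E11.5 and E13.5 H3K27ac lists. It was also the only site in the Ebf1 locus found in more than 1 list. The other 25 of 26 sites each came from a single list.

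Ebf2 lies on chromosome 14 from 67233292 to 67430918 on the plus strand, and no other protein-coding TSS falls in its locus. H3K27ac peaks numbered 0 in the Ebf2-EGFP- cells, and 12, 23 and 0 by stage in the Ebf2-EGFP+ cells. H3K27me3 peaks numbered 10 in the Ebf2-EGFP- cells, 1.4-fold those at genome density, and 50.5% of all genes had a locus at least as dense. In Ebf2-EGFP+ cells they numbered 3, 4 and 0 by stage. The E11.5 and E13.5 H3K27ac counts were 2.22-fold and 1.53-fold those at genome density. The H3K27me3 counts of the same cells were 3.22-fold and 4.08-fold. Of all genes, 38.1% and 48.1% had a locus at least as dense in H3K27ac peaks, and 27% and 18.5% in H3K27me3 peaks. At E15.5 a stretch of this length would hold 3.76 H3K27ac peaks at genome density, and the median over all genes was 4. Of all genes, 12.8% had no H3K27ac peak in their locus in that list. The nearest H3K27ac peak of that list lay 130 kb upstream of the Ebf2 TSS, beyond the locus. In the study's RNA data, Ebf2 was higher in Ebf2-EGFP+ than in Ebf2-EGFP- cells at every stage, E15.5 included. The empty locus thus does not show that Ebf2 was silent. Of the 6903 genes with at least 23 H3K27ac peaks in their locus at E13.5, 13 (0.188%) had none at E15.5, and Ebf2 was among them. The cut-offs are the values of Ebf2 itself. By the same reading with each gene's own values, 197 of 10328 genes (1.91%) had as few as Ebf1 (15, then 1), 37.2% as few as Ebf3 (26, then 8) and 34.1% as few as Ebf4 (28, then 8). The lists also differed in width. Of the 23 Ebf2 peaks of E13.5, 14 were narrower than the narrowest peak of the E15.5 list, and 1 reached 300 bp. The narrowest peak had 184 bp in the E15.5 list and 126 bp in that of E13.5. The median width of the whole E13.5 list was 183 bp, and a part of width in the contrast was not tested. With each H3K27ac list lowered to its 1386 widest peaks, the family had 0 peaks in the E13.5 list against 3 in that of E15.5. Among the 3 was the 1138 bp peak at the TSS of Rnf145. Over the family the order of these stages was thus not kept, but so few peaks give no direction. Ebf2 itself then had 0 peaks at both stages, since none of the E15.5 peaks lay in its locus.

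At the Ebf2 TSS itself the peaks were small. The H3K27ac peak of E11.5 Ebf2-EGFP+ cells had 151 bp and lay 2.54 kb into the gene, and that of E13.5 had 147 bp and lay 1.28 kb upstream, so the peaks of these stages were at different places. Among genes with a TSS peak in the same list, 95.2% and 88.7% had a widest peak at least as wide. H3K27me3 was found 1.20 kb into the gene in the Ebf2-EGFP- cells (183 bp) and 2.77 kb upstream at E13.5 (184 bp). None of these 4 peaks lay within 1 kb of the TSS. Away from it, 3 sites were acetylated at both E11.5 and E13.5, all in the gene, centred 21.3 kb, 66.6 kb and 191 kb from the TSS. The site at 21.3 kb (printed above) held 2 E-boxes and no H3K27me3 peak in any list. At 66.6 kb the E13.5 H3K27ac peak also contained an H3K27me3 peak of 121 bp from the same cells, and at 14.9 kb another H3K27me3 peak of E13.5 overlapped an H3K27ac peak of E13.5. The widest Ebf2 peak of any list, of 525 bp, was acetylated at E11.5 and lay 82.7 kb upstream, with an H3K27me3 peak of 134 bp inside it in the same cell group. H3K27me3 sites of the Ebf2-EGFP- cells met H3K27ac of E11.5 Ebf2-EGFP+ cells at 1 site and H3K27ac of E13.5 at 2.

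**Figure D2:**
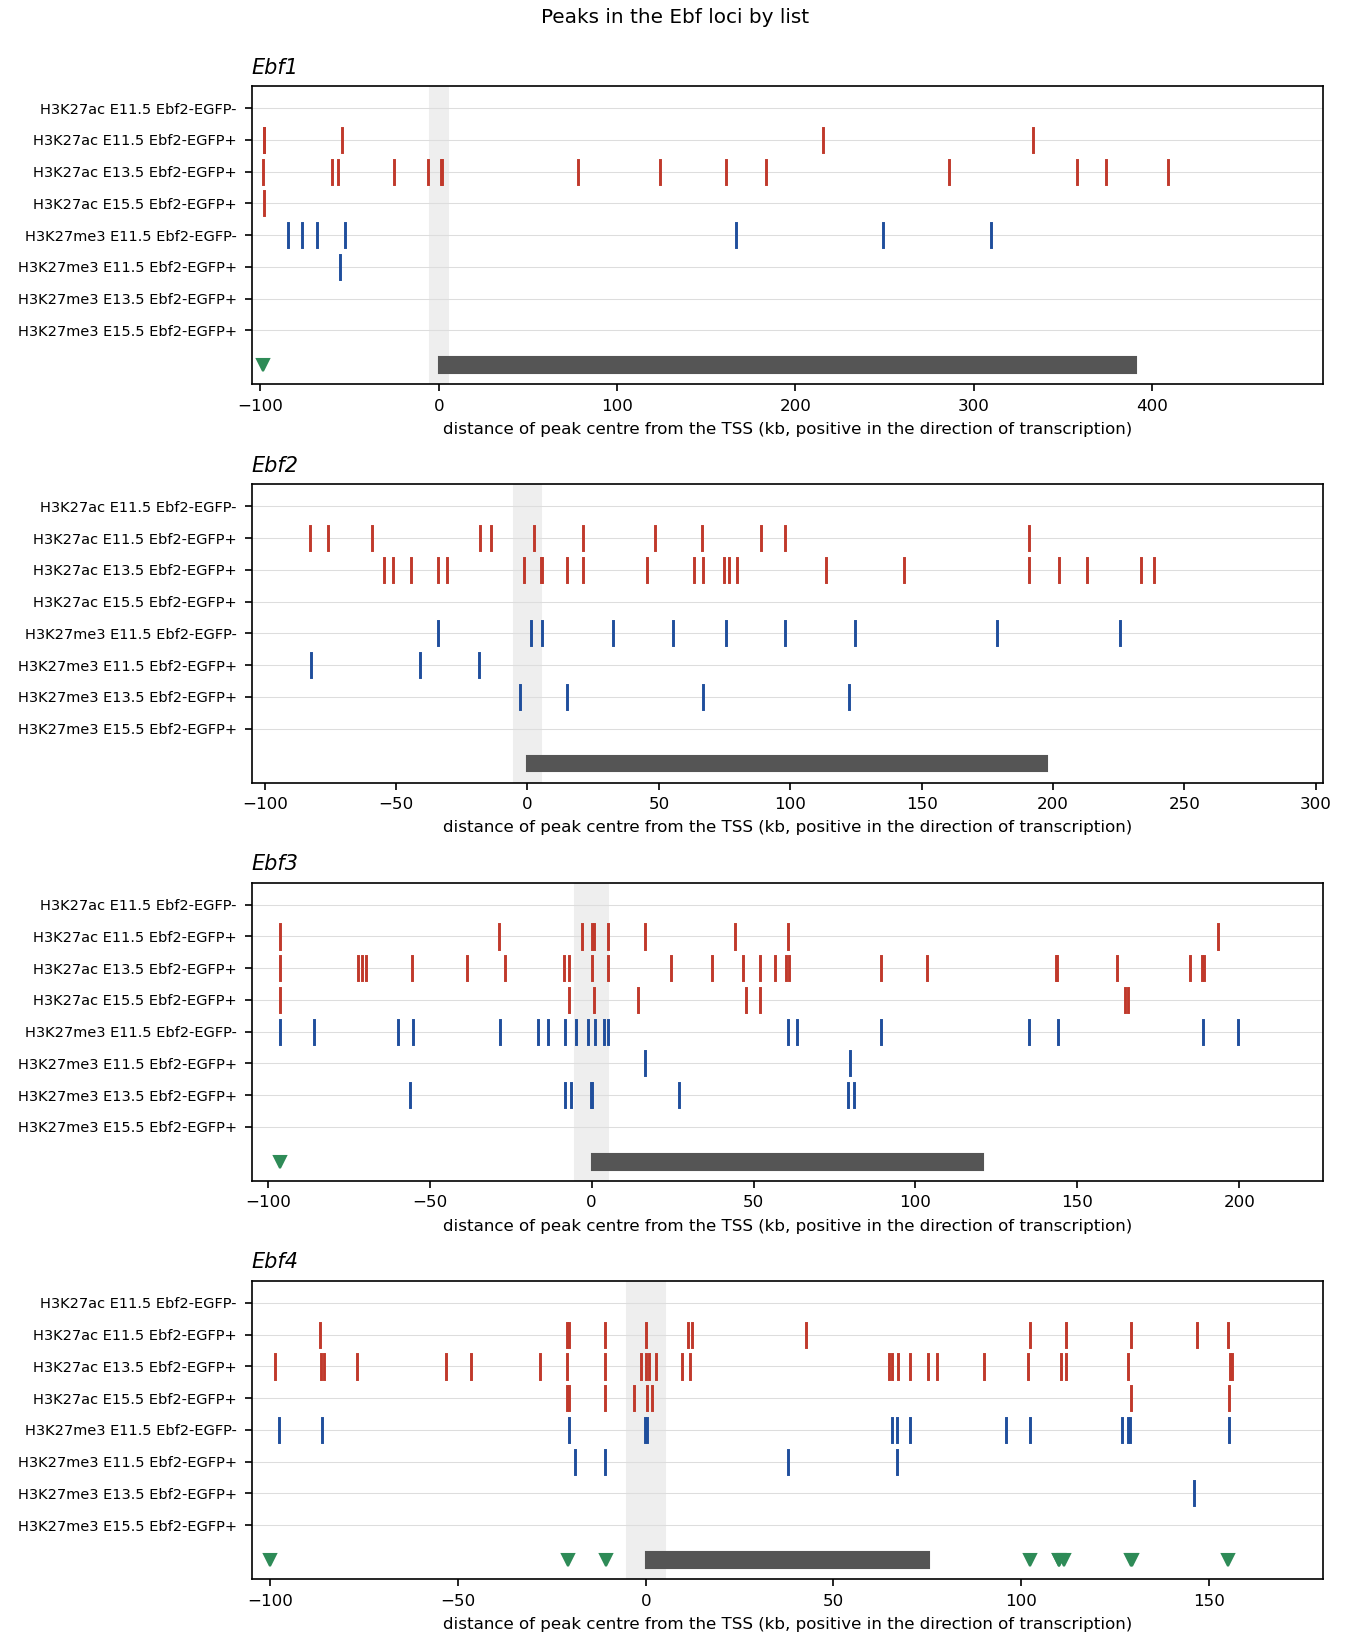
Every peak in the 4 Ebf loci, with the distance of its centre from the TSS in kb on the horizontal axis (positive in the direction of transcription) and 1 row per list. Red ticks are H3K27ac and blue ticks H3K27me3, the dark bar is the gene, the grey band the TSS window, and green triangles are the TSS of other protein-coding genes. At Ebf2 the 23 H3K27ac peaks of E13.5 face 0 of E15.5, and in the Ebf1 row of E15.5 the single peak stands over the triangle of Rnf145.

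Ebf3, a member known from neuronal differentiation, lies on chromosome 7 from 137193673 to 137314445 on the minus strand. It had the most peaks of the family, 74 over all lists. H3K27ac peaks numbered 0 in the Ebf2-EGFP- cells, and 10, 26 and 8 by stage in the Ebf2-EGFP+ cells, or 2.29-fold, 2.15-fold and 2.64-fold those at genome density. H3K27me3 peaks numbered 20 in the Ebf2-EGFP- cells (3.47-fold), and 2, 8 and 0 in Ebf2-EGFP+ cells (2.66-fold and 10.1-fold at E11.5 and E13.5). By stage, 37.3%, 36.4% and 34.5% of all genes had a locus at least as dense in H3K27ac peaks. For H3K27me3 these shares were 20.9% in the Ebf2-EGFP- cells, then 28.5% and 2.83% at E11.5 and E13.5. The 8 H3K27me3 peaks of E13.5 were the highest count for the family relative to the list, and 1.1% of all genes had at least as many in their own locus. The median over all genes was 1.

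At the Ebf3 TSS the marks lay close together. In the Ebf2-EGFP- cells 5 H3K27me3 peaks stood in the window, of 146 bp to 248 bp, between 4.72 kb upstream and 5.06 kb into the gene, and the widest H3K27me3 peak of the locus, of 850 bp, followed 8.31 kb upstream. In E11.5 Ebf2-EGFP+ cells there were 4 H3K27ac peaks, the nearest of 286 bp at 0.227 kb and the widest of 481 bp at 5.05 kb into the gene. At E13.5 an H3K27ac peak of 625 bp covered the TSS, and 4.41% of the genes with a TSS peak in that list had a widest peak at least as wide. At E15.5 a single peak of 1337 bp covered the TSS and the start of the gene, with 6.99% of marked genes as wide. Peaks of that list were wider in general, with a median of 582 bp for the widest TSS peak of a marked gene, against 342 bp at E11.5 and 255 bp at E13.5.

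Both marks met at the Ebf3 start at E13.5. H3K27me3 peaks of 205 bp and 176 bp lay 0.144 kb upstream and 0.191 kb into the gene, and both overlapped the 625 bp H3K27ac peak of the same cell group. The upstream one falls in the 250 bases printed above, which hold 1 core motif. The site around the TSS joined 7 peaks of 5 lists, the most of any site in the 4 loci, with the 1337 bp peak of E15.5 as the bridge. The H3K27me3 peak of the Ebf2-EGFP- cells in it, of 157 bp, overlapped H3K27ac of E15.5 alone. Over the locus, 3 H3K27me3 peaks of the Ebf2-EGFP- cells overlapped H3K27ac of E11.5 Ebf2-EGFP+ cells directly, and 7 overlapped H3K27ac of E13.5. Those in both counts included the one 5.05 kb into the gene (printed above), where the H3K27me3 peak of 248 bp lay inside H3K27ac peaks of 481 bp and 356 bp, and an intronic site 60.8 kb into the gene. The site 8.31 kb upstream had H3K27me3 in the Ebf2-EGFP- cells and at E13.5, with an H3K27ac peak of 237 bp inside it at E13.5. One of the 8 H3K27ac peaks at E15.5 lay 96.3 kb upstream at the TSS of 9430038I01Rik, and 3 overlapped the gene beyond the TSS window, 14.3 kb, 47.6 kb and 51.9 kb from the TSS. Of these the one at 51.9 kb was shared with E13.5.

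Ebf4 lies on chromosome 2 from 130295169 to 130370481 on the plus strand and is the shortest, at 75.3 kb. H3K27ac peaks numbered 0 in the Ebf2-EGFP- cells, and 13, 28 and 8 by stage in the Ebf2-EGFP+ cells, or 3.47-fold, 2.69-fold and 3.07-fold those at genome density. By stage, 23.8%, 29.1% and 29.6% of all genes had a locus at least as dense in these peaks. H3K27me3 peaks numbered 14 in the Ebf2-EGFP- cells (2.83-fold, with 27.3% of all genes at least as dense), and 4, 1 and 0 in Ebf2-EGFP+ cells. Its flanks hold the TSS of 10 other protein-coding genes, among them Nop56, Idh3b, Vps16 and Ptpra, and 7, 7 and 5 of the H3K27ac peaks by stage lay within 1 kb of one of these. Without them the H3K27ac counts were 6, 21 and 3, beside 3.74, 10.4 and 2.6 at genome density. At E15.5 the remaining count was thus close to that density. Within 1 kb of a neighbour's TSS there were also 5 H3K27me3 peaks of the Ebf2-EGFP- cells and 1 of E11.5 Ebf2-EGFP+ cells, which left 9 and 3. At genome density the Ebf2-EGFP- list would give 4.95.

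The Ebf4 TSS carried the widest H3K27ac peak of the family at E11.5. That peak had 1038 bp and was centred 0.085 kb into the gene, and 3.10% of marked genes had one as wide. At E13.5 the widest of 4 peaks in the window had 620 bp and 522 bp and stood at 0.009 kb and 0.793 kb, and at E15.5 the widest of 3, with 1142 bp, covered the TSS and lay within the same stretch. In the Ebf2-EGFP- cells H3K27me3 peaks of 335 bp and 164 bp lay 0.248 kb upstream and 0.276 kb into the gene, inside the stretch that was acetylated in Ebf2-EGFP+ cells. No H3K27me3 list of Ebf2-EGFP+ cells had a peak in the window, and the nearest ones were 10.8 kb upstream at E11.5 and 146 kb downstream at E13.5. Within the gene beyond the window, the H3K27ac lists gave 3, 7 and 0 peaks by stage, so all 8 peaks of the E15.5 list were in the TSS window (3) or in the flanks (5), and each of those in the flanks lay at the TSS of a neighbour.

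**Figure D3:**
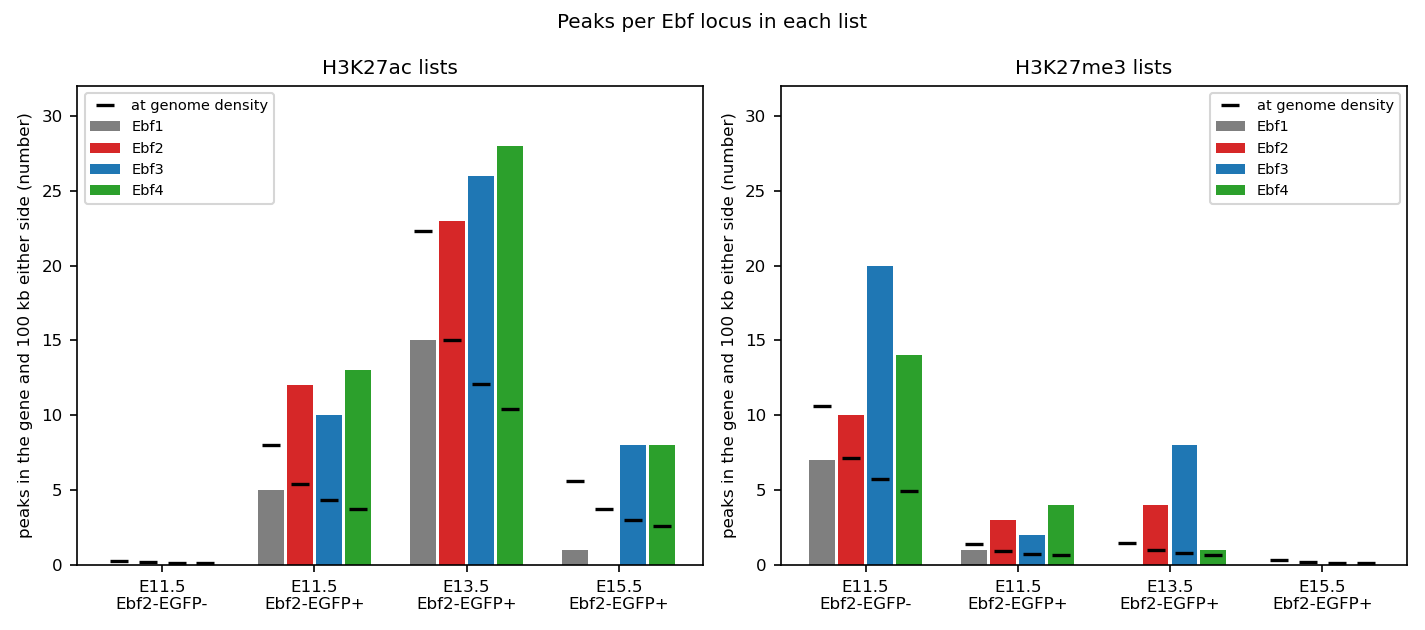
Number of peaks in each Ebf gene and 100 kb either side (vertical axis), by cell group, for the H3K27ac lists (left) and the H3K27me3 lists (right). Bars are single deposited lists without replicates, and black dashes give the number that a stretch of that length would hold at the density of the list over the genome. Ebf3 and Ebf4 rise above the dash in 3 of 4 H3K27ac lists, and Ebf1 stays below it in all 8 lists. The Ebf4 bars include peaks at the TSS of neighbouring genes, 7, 7 and 5 of its H3K27ac peaks by stage.

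Over the family, the peaks per 10000 of a list were less uneven than the counts. For H3K27ac they were 0 in the Ebf2-EGFP- cells (0 peaks), and 10.8 (40 peaks), 8.94 (92 peaks) and 6.59 (17 peaks) by stage in the Ebf2-EGFP+ cells. For H3K27me3 they were 10.4 (51 peaks) in the Ebf2-EGFP- cells, and 15.7 (10 peaks), 19.3 (13 peaks) and 0 in Ebf2-EGFP+ cells. The empty lists were the shortest of each mark, in which the summed loci would hold 0.806 and 0.831 peaks at genome density, so an empty family does not show a loss of either mark there. Peaks at the narrowest width of their list hold the least evidence of extent. They made up 12.5%, 5.43% and 0% of the H3K27ac family peaks by stage, against 8.53%, 10.7% and 9.76% of the whole lists. Of the H3K27me3 family peaks in the Ebf2-EGFP- cells they made up 15.7%, against 12.9% of the whole list. In H3K27me3 lists of Ebf2-EGFP+ cells the family had no peak of 300 bp or more, the widest being 185 bp at E11.5 and 271 bp at E13.5. Of the 68 H3K27ac peaks that overlapped a member gene, 51 were centred in introns and 9 in coding exons, and of 32 H3K27me3 peaks 26 and 4.

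Peaks were then compared between lists to see which sites persisted. The 223 peaks formed 166 sites, of which 135 were found in 1 list, 19 in 2 and 12 in 3 or more. From E11.5 to E13.5, 14 of 40 H3K27ac family peaks (35.0%, Wilson 95% CI 22.1 to 50.5) overlapped a peak of the later list, against 36.7% of the whole E11.5 list. From E13.5 to E15.5 it was 10 of 92 (10.9%, CI 6.01 to 18.9), against 11.2%. Of the 17 E15.5 peaks, 10 (58.8%, CI 36.0 to 78.4) were already in the E13.5 list, against 39.4% of the whole list. None of the 10 was at Ebf2, 1 was at Ebf1, 4 at Ebf3 and 5 at Ebf4. Leaving out peaks at the TSS of other genes, 4 of 10 remained (40.0%), a choice made after seeing the data. The same step left 5 of 83 (6.02%) from E13.5 to E15.5. The intervals cover counting error over peaks only.

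Sites with H3K27me3 in one group and H3K27ac in another were counted the same way. Of 51 H3K27me3 family peaks in the Ebf2-EGFP- cells, 10 (19.6%, CI 11 to 32.5) overlapped H3K27ac of E11.5 Ebf2-EGFP+ cells, against 21.7% of the whole list. They were 0 at Ebf1, 1 at Ebf2, 3 at Ebf3 and 6 at Ebf4. Without peaks at the TSS of other genes it was 5 of 45 (11.1%). At E13.5, 16 of the 51 (31.4%, CI 20.3 to 45.0) overlapped H3K27ac, against 37.7%. Within a cell group, 3 of 10 H3K27me3 peaks at E11.5 (30.0%, CI 10.8 to 60.3, against 21.2%) and 5 of 13 at E13.5 (38.5%, CI 17.7 to 64.5, against 38.4%) lay on H3K27ac. Every interval named in these comparisons held the share of the whole list. Peaks of 1 list are not replicates, so this is no test of a difference. The whole-list shares were not recomputed without peaks at the TSS of genes, so the reduced family shares have no like comparison. The cells of a group were not separated further, and whether both marks sat on the same chromatin or in different cells cannot be told apart.

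**Figure D4:**
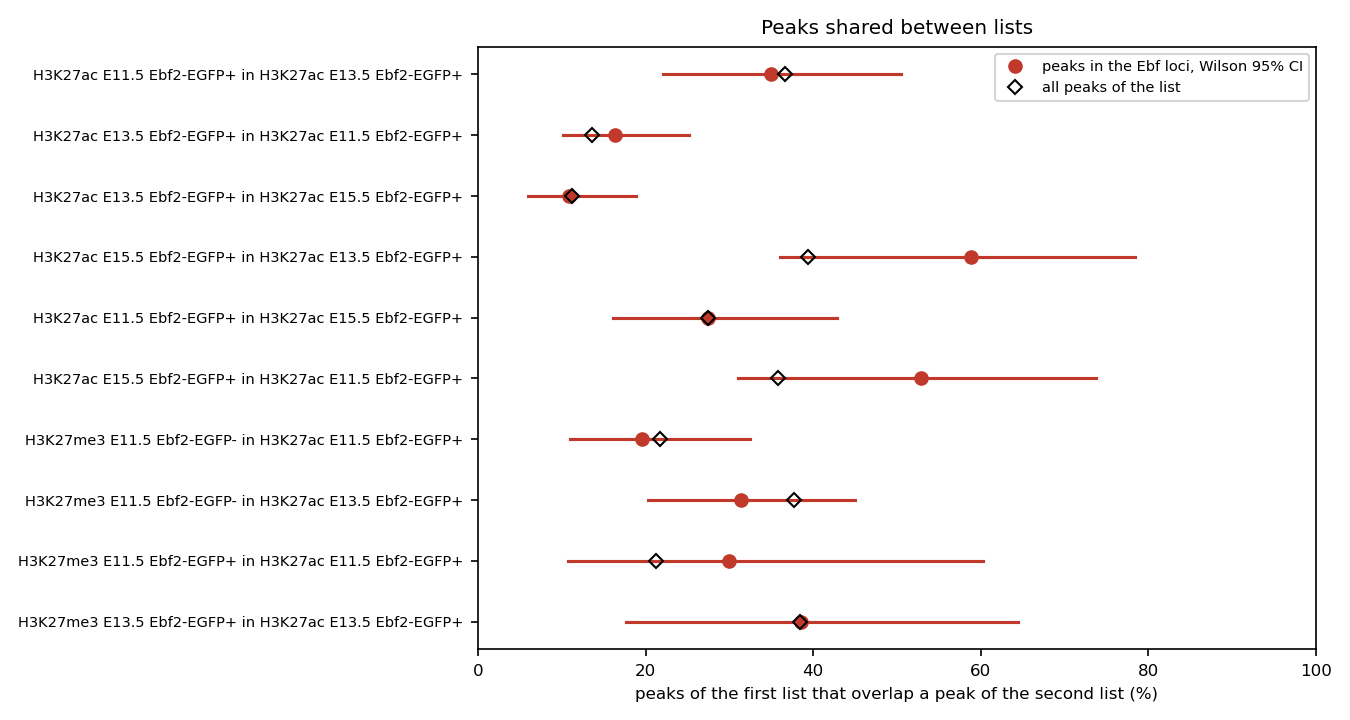
Share of the peaks of one list that overlap a peak of another by at least 1 bp (horizontal axis, %), for 10 ordered pairs of lists. Red points with lines are peaks in the Ebf loci with Wilson 95% intervals, and open diamonds are all peaks of the list. Each diamond falls within the line of its pair, for example 36.7% beside 35.0% from E11.5 to E13.5.

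The motifs bound by Ebf and by proneural factors were searched in the peaks. The core CCCNNGGG was found in 17 of 149 H3K27ac family peaks (11.4%) and in 16.8% of all H3K27ac peaks. For H3K27me3 it was found in 10 of 74 family peaks and in 14.6% of all. With T before and A after it, the core was found in 3 H3K27ac peaks (2.01%, against 1.14%) and 2 H3K27me3 peaks (2.70%, against 0.839%). E-boxes were in 64.4% of the H3K27ac family peaks and 55.4% of the H3K27me3 ones, against 69.0% and 63.7% of all peaks. A peak counts once in each list here, and the same stretch can enter from several lists. Mean GC content of the family peaks was 58.3% for H3K27ac and 59.0% for H3K27me3, beside 58.7% and 59.6% over all peaks. RefSeq promoter stretches (GRCm38, 250 bases before to 50 after the start) matched 3 members, Ebf1, Ebf3 and Ebf4, with no entry for Ebf2. The core stood in that of Ebf3, as in 13.7% of 32851 promoters, and E-boxes, found in 72.3% of promoters, stood in 1 of the 2 Ebf1 stretches and in that of Ebf4.

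Genes known to act with or around Ebf factors were read at the TSS for comparison. Their counts stand beside all-TSS shares for H3K27ac of 4.17% in the Ebf2-EGFP- cells and 49.9%, 60.9% and 52.3% by stage, and for H3K27me3 of 48.2%, then 4.92%, 9.31% and 1.06%. Zfp423 and Zfp521, zinc-finger proteins that bind Ebf factors and limit their activity, both had H3K27me3 in the Ebf2-EGFP- cells and H3K27ac at all 3 Ebf2-EGFP+ stages. Zfp423 also had H3K27ac in the Ebf2-EGFP- cells. Zfp521 had the same TSS pattern as Ebf3 over the 8 lists, with H3K27me3 at E13.5. Of 9 proneural and neuronal factors, which switch on neuronal genes as progenitors differentiate, 8, 8 and 6 had H3K27ac by stage in the Ebf2-EGFP+ cells, and 7 had H3K27me3 in the Ebf2-EGFP- cells. Neurog1 and Nhlh1 were those acetylated at E11.5 and E13.5 but not at E15.5, the acetylation pattern of Ebf2. Sox2, Gad2 and Col1a1, markers of other cells, had this pattern too. Of all TSS, 9.91% had H3K27ac at E11.5 and none at E15.5. Neurod4 had no TSS peak in any list. Of 4 forebrain and progenitor factors, 3, 4 and 3 had H3K27ac by stage, and 2 had H3K27me3 in the Ebf2-EGFP- cells. Of 6 CR genes, 5, 6 and 5 had H3K27ac by stage and 4 had H3K27me3 in the Ebf2-EGFP- cells. Calb2, a calcium-binding protein of CR cells, was the one missing at E11.5 and E15.5, and its TSS pattern was that of Ebf1. Over all 21 genes, H3K27ac was found at 5 in the Ebf2-EGFP- cells and at 18, 20 and 16 by stage in the Ebf2-EGFP+ cells, and H3K27me3 at 15, then 2, 4 and 3. These genes were picked for their biology, and their counts are given without a test.

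Finally, genes were ranked by how like each member they were over the 8 lists. The pattern of TSS peaks of Ebf1 was shared by 1431 other genes (6.52%), that of Ebf2 by 205 (0.934%), that of Ebf3 by 659 (3.0%) and that of Ebf4 by 3785 (17.3%). Among genes with the same pattern, those near Ebf2 in number of peaks within 100 kb of the TSS included Hmx2 and Slc18a2, with summed differences of 10 and 12 peaks over the 8 lists beside 40 peaks for Ebf2 itself. For Ebf3 (60 peaks) the nearest were Tbx2, Camkk1 and Papola at 8, 11 and 12, and for Ebf4 (49 peaks) Grrp1, Cep250 and Gm30191 at 3, 5 and 5. For Ebf1, with 17 peaks, they were Gm8050, 4930433I11Rik and Gm3629 at 0, 2 and 2. A small difference is easier to reach where there are few peaks, and the points share the 8 lists and their lengths.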

How the data were processed

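Cortical cells were sorted by EGFP, and per the labels and the study's methods reads were aligned with Bowtie 1.1.2 on Galaxy to mm10 and peaks were called with MACS. The MACS version, the pooling of libraries and the use of the input libraries are not given in the sources used here. The authors deposited 1 peak list per ChIP group, with chromosome, start, end and a score that was 0 for every peak, so no height or read depth was known and width was the only measure of a peak. The deposited starts were counted from 0 and are printed from 1.

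Genes were taken from GENCODE M21 (GRCm38), with the TSS at the 5′ end of the gene. Overlap meant at least 1 bp, and sites were runs of overlapping peaks. Genome density was the number of peaks of a list per length of the assembled chromosomes. Likeness was the summed absolute difference in peaks within 100 kb of the TSS over the 8 lists, among genes with the same TSS pattern, and the 3 nearest genes were named, except for 1 that is not reported here. Intervals are Wilson 95% intervals. Python 3.11.15, pysam 0.24.0, scipy 1.17.1 and matplotlib 3.10.9 were used, and the overlap, window and merging functions were checked on simulated data. The members and gene lists were chosen with earlier results of these data known. With 1 list per group, no test was run.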

Additional observations from a re-analysis of the deposited data

How the results depend on the processing

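The 22 results were recomputed under alternatives that gave 84 values, of which 58 stayed within 1.5 times the reported count or within the interval of the reported share and 26 did not. With each list lowered to its widest peaks, as many as the shortest list of its mark (1386 for H3K27ac, 1438 for H3K27me3), the members with a TSS peak were 1 and 0 for H3K27ac at E11.5 and E13.5 in Ebf2-EGFP+ cells, and for H3K27me3 0 in the Ebf2-EGFP- cells and 1 at E13.5. The peaks in the loci were then 3, 0 and 3 for H3K27ac by stage, and for H3K27me3 1 in the Ebf2-EGFP- cells, 0 in E11.5 Ebf2-EGFP+ cells and 3 at E13.5. With peaks of at least 300 bp, the members were 2 for H3K27ac at E13.5, and for H3K27me3 1 in the Ebf2-EGFP- cells and 0 at E13.5. The peaks in the loci were 9, 16 and 9 for H3K27ac by stage, and for H3K27me3 8 in the Ebf2-EGFP- cells, 0 in E11.5 Ebf2-EGFP+ cells and 0 at E13.5. Both settings keep fewer peaks by construction. A window of 1 kb left 1 member with H3K27me3 at E13.5. Without peaks at the TSS of other genes, an alternative added after seeing the data, the H3K27ac peaks at E15.5 were 10. At a reciprocal overlap of at least 50%, the shared H3K27ac peaks were 20% from E11.5 to E13.5, 4.35% from E13.5 to E15.5 and 23.5% from E15.5 to E13.5. H3K27me3 peaks shared with H3K27ac were then 9.80% from E11.5 Ebf2-EGFP- to E11.5 Ebf2-EGFP+ cells and 15.4% at E13.5. A stricter peak threshold was not run, since the score was 0 throughout. No paired analysis was possible because each group had 1 peak list. Without replicates or read depth, a missing peak does not show that the mark is absent.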
